A study of Mus musculus with 12 samples.

Results

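The response of Ex6DEL granulosa cells to an ovulatory dose of human chorionic gonadotropin (hCG) was read from 6 of the 12 arrays of the series, 3 at 0 h and 3 at 4 h after hCG. The arrays were chosen by their labels alone, and the 6 arrays of wild-type (WT) littermates serve here only as a comparison. Ex6DEL mice lack exon 6 of Snf2l (the gene Smarca1), which encodes an ATPase of the ISWI chromatin remodellers. The deletion is carried in the germline: it was made with a Gata-1 Cre line in a CD-1 background and a loxP allele in 129Sv, and the line was then kept without Cre on 129SV. It is therefore not limited to granulosa cells. Females of 24 to 26 days of age, WT and Ex6DEL alike, were given PMSG (pregnant mare serum gonadotropin, 5 IU), a hormone that drives follicles to the preovulatory stage. Cells of the 0 h groups were taken 48 h later. The 4 h groups received 5 IU of hCG at that time instead and were sampled 4 h after it. Each array carried total RNA of granulosa cells pooled from 5 mice and freed by puncturing follicles. The labels leave unsaid whether each array had a pool of its own, and p-values here measure only how far these arrays scatter, which may be technical.

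Granulosa cells line the ovarian follicle and nourish the oocyte. The hormone hCG acts on the receptor of luteinizing hormone (LH), which raises cAMP. EGF-like ligands shed by the mural granulosa cells then activate ERK in the whole follicle. Within hours the cells leave the proliferative, estrogen-producing programme set up by follicle-stimulating hormone (FSH) and lay down the hyaluronan matrix that surrounds the oocyte. They also take up the programme of the corpus luteum, the progesterone-secreting body that the ruptured follicle becomes. The comparison asks how cells without exon 6 of Snf2l pass through this switch.

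Levels are log2 intensities, so a change of 1 is a 2-fold change. In all 18194 genes were tested, each through 1 probe set. A set of 6471 genes (35.6%) had means below the array medians at both times and is counted as set aside, which left 11723. Because the deposited values of many genes vary little and others vary widely, the moderated test of limma gained little from other genes (0.49 prior degrees of freedom beside 4 of the arrays). A gene is called here at a limma adjusted p under 0.05 over all genes. It is described as separated when all 3 arrays of 4 h lie beyond all 3 of 0 h, the means differ at least 2-fold and the gene is not set aside. Separation is a description, since an exact permutation test of 3 arrays against 3 cannot give a p below 0.1.

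The targeted gene did not differ beyond the spread between the arrays. Smarca1 stood at 10.96, 10.61 and 10.70 at 0 h and 12.19, 11.05 and 10.72 at 4 h and overlapped between the times (change 0.56, SE 0.43, limma adjusted p = 0.647), with 4 h replicate 1 as the highest array. The place of its probe set relative to exon 6 was not analysed here, and the values therefore say nothing about the genotype.

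Few genes passed the test, and many more were separated. Limma called 10 genes (0.055% of those tested), of which 2 rose (0.011%) and 8 fell (0.044%). With the replicate number as a block the same 6 arrays gave no call (smallest limma adjusted p = 0.135, 2626 genes at an unadjusted p under 0.05, against 2389 without the block). Arrays of the same number were more alike by the check given with the methods. The titles give only replicate numbers, however, so a pairing of 0 h with 4 h arrays is not established, and the main fit uses none. The count was 6, 0 and 73 when 0 h replicate 1, 2 or 3 was left out. It was 16, 0 and 3 without 4 h replicate 1, 2 or 3, and without 4 h replicate 1 the calls were 12 up and 4 down. Separated genes numbered 536 upward (2.95%) and 1651 downward (9.07%), so 24.5% of them were higher at 4 h. After quantile normalization of the arrays the split was 675 and 1200 (36% higher), and after a shift of the arrays to one median 621 and 1328 (31.9%). The median change of the genes not set aside was -0.24 as deposited, -0.13 after quantile normalization and -0.15 after the shift, so a small negative change is the ordinary case for an expressed gene. Among the separated genes, changes of 16-fold or more numbered 48 upward and 22 downward. The plot of change by level shows the separated genes at all levels above the background.

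**Figure D1:**
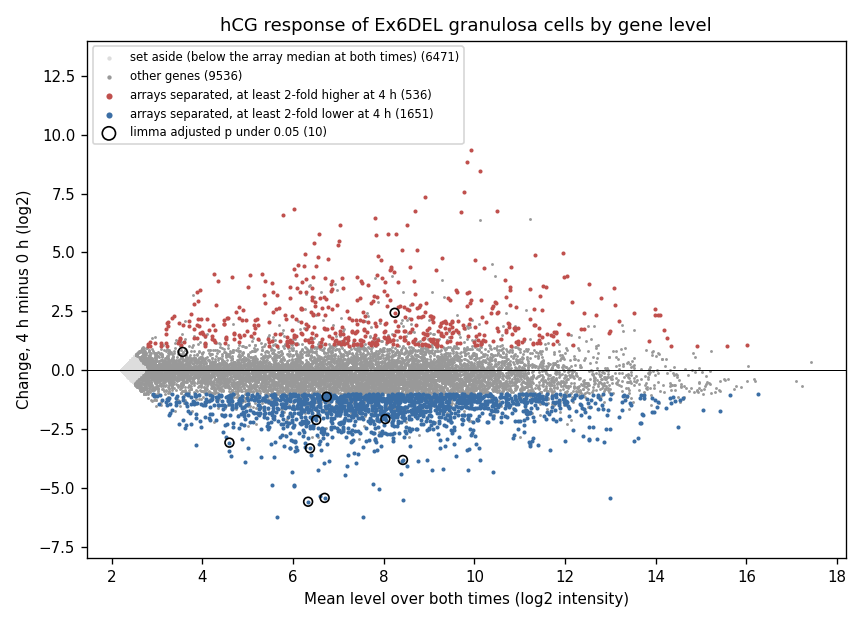
Change between 0 h and 4 h (log2, vertical) against the mean level over both times (log2 intensity, horizontal) for each of the 18194 genes of the Ex6DEL arrays. The 536 separated genes that were higher at 4 h reach changes above 9, the 1651 that were lower reach about -6, and black rings mark the 10 genes called by limma.

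The 2 genes that rose encode a cAMP-binding protein and a kinase-like protein. Bves, a Popeye domain membrane protein that binds cAMP, stood at 6.94, 6.89 and 7.24 at 0 h and 9.40, 9.40 and 9.57 at 4 h. Its arrays lay far apart between the times and close together within them, and it rose by 2.43 (SE 0.12, limma adjusted p = 0.0496), 5.39-fold. Its other probe set stood at a mean of 2.92 and 5.31, a difference of 2.38. Styk1, a receptor-like kinase gene, rose by 0.77 (SE 0.04, limma adjusted p = 0.0496), with arrays at 3.22, 3.16 and 3.17 at 0 h and 3.87, 3.98 and 4.01 at 4 h. That is less than a 2-fold change at a level not far above background.

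The 8 genes that fell have roles in the centrosome, microtubules, signalling and the nucleus. Alms1, a protein of centrosomes and the base of cilia, stood at 9.35, 9.58 and 9.31 at 0 h and 4.39, 3.58 and 3.96 at 4 h. It fell by 5.43 (SE 0.23), so that its level at 0 h was 43.2-fold that at 4 h. Smim10l2a, which encodes a small membrane protein, stood at 9.18, 9.38 and 8.83 at 0 h and 3.22, 4.04 and 3.35 at 4 h and fell by 5.60. In both genes the arrays of each time lay within 1 unit of each other.

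Mtcl1, a microtubule cross-linking factor, fell by 3.82, with arrays at 10.44, 10.56 and 10.004 at 0 h and 6.73, 6.28 and 6.53 at 4 h, and its other probe set differed by -2.34. Rasl10a, a small GTPase of the Ras superfamily, fell by 3.33, with arrays at 8.23, 8.14 and 7.74 at 0 h and 4.94, 4.55 and 4.63 at 4 h. Mro (maestro), first known from the developing testis, fell by 3.09, with arrays at 6.23, 6.06 and 6.13 at 0 h and 2.95, 2.86 and 3.36 at 4 h. The 4 h arrays of Mro lay close to background. R3hdm2, an R3H domain gene, fell by 2.12, with arrays at 7.73, 7.64 and 7.35 at 0 h and 5.38, 5.54 and 5.42 at 4 h. Xrcc5, which encodes the Ku80 subunit of DNA end joining, fell by 1.13, with arrays at 7.24, 7.28 and 7.41 at 0 h and 6.18, 6.17 and 6.17 at 4 h. Nfia, a transcription factor of the nuclear factor I family, fell by 2.08, with arrays at 9.12, 9.05 and 9.06 at 0 h and 6.77, 7.18 and 7.03 at 4 h, but its other 5 probe sets differed by -0.45 to 0.00. All 10 called genes had the same limma adjusted p of 0.0496. Of them 7 were also called without 0 h replicate 3: Bves, Alms1, Smim10l2a, Mtcl1, Rasl10a, R3hdm2 and Xrcc5. None of the 10 was called without 0 h replicate 1, 0 h replicate 2 or 4 h replicate 2. Without 4 h replicate 1 the number kept was 3, without 4 h replicate 3 it was 1, and with the mean of probe sets 2.

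**Figure D2:**
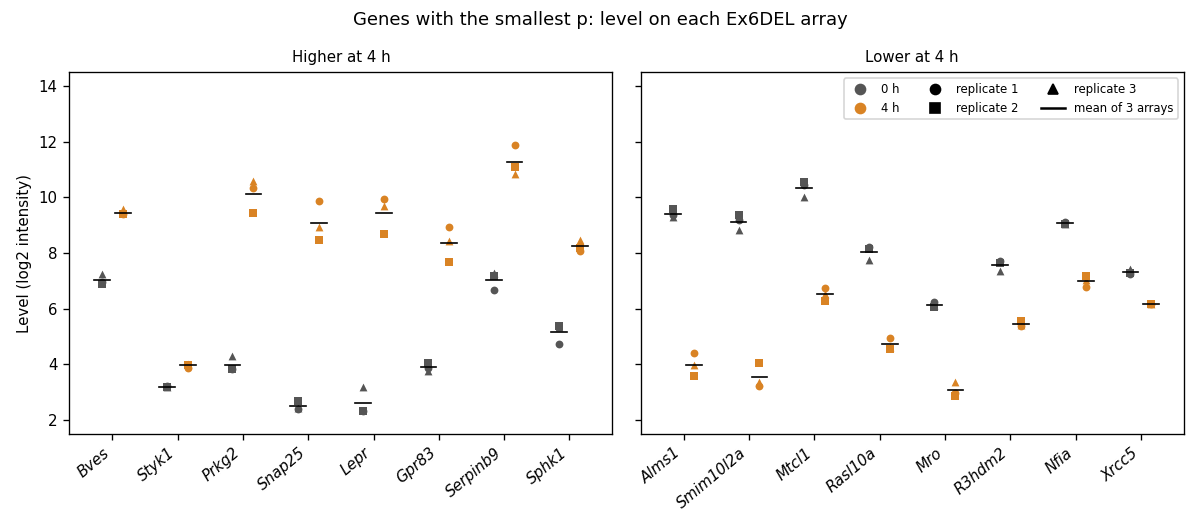
Level (log2 intensity) of 16 genes on each of the 3 arrays of 0 h (grey) and 4 h (orange), with symbols for replicate 1, 2 and 3 and a bar at the mean. The left panel holds Bves and Styk1, which rose, and 6 genes higher at 4 h that did not pass, and the right panel the 8 genes that fell. No 4 h array overlaps a 0 h array in any of them.

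Just outside the threshold stood genes with far larger increases. Prkg2, the membrane-bound kinase activated by cGMP, stood at 3.82, 3.82 and 4.28 at 0 h and 10.35, 9.42 and 10.58 at 4 h, a change of 6.15 (SE 0.37, limma adjusted p = 0.0521). Its strongest other probe set differed by 6.16. Snap25, a SNARE protein that docks secretory vesicles, stood at 2.38, 2.68 and 2.41 at 0 h and 9.87, 8.46 and 8.94 at 4 h (change 6.60, limma adjusted p = 0.0532). These values say that Snap25 lay at background on every array of 0 h and well above it on every array of 4 h. Lepr, the leptin receptor, stood at 2.33, 2.32 and 3.17 at 0 h and 9.94, 8.67 and 9.71 at 4 h (change 6.83, limma adjusted p = 0.0717). Its other probe sets differed by 5.08, 1.41 and 0.35.

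The smallest p-values above these belonged to genes of signalling and proteolysis control. Gpr83, an orphan G protein-coupled receptor, stood at 3.85, 4.04 and 3.77 at 0 h and 8.92, 7.69 and 8.44 at 4 h, a change of 4.46. Sphk1, a sphingosine kinase, stood at 4.72, 5.37 and 5.33 at 0 h and 8.07, 8.18 and 8.47 at 4 h, a change of 3.10. Serpinb9, an inhibitor of granzyme B, stood at 6.68, 7.19 and 7.27 at 0 h and 11.89, 11.11 and 10.84 at 4 h, a change of 4.24. The 3 genes had limma adjusted p-values of 0.0732, 0.0732 and 0.0753. Jarid2, which recruits the Polycomb complex PRC2 to chromatin, stood at 10.01, 10.23 and 9.94 at 0 h and 11.74, 11.40 and 11.66 at 4 h, a change of 1.54, and its other probe sets differed by 1.45 and 2.79. Smaller differences with little spread were those of Dcaf10 (1.54), a substrate receptor of ubiquitin ligases, Ssbp2 (1.32), the tubulin gene Tubb6 (1.30) and Traf3ip2 (1.26), an adaptor of interleukin-17 signalling. Pcdh7, a protocadherin, had 2.87, but another of its probe sets differed the other way, by -0.43. The other probe set of Tubb6 differed by 0.08. On the probe sets used, these genes shared well separated arrays and a 0 h replicate 3 that lay with its group.

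Decreases outside the threshold included larger ones than those of the called genes, with narrow and with wide spread. Tmprss13, a transmembrane serine protease, stood at 10.07, 10.06 and 6.14 at 0 h and 3.02, 2.26 and 2.26 at 4 h, a change of -6.24 (SE 1.26, limma adjusted p = 0.204). The chloride channel gene Pacc1 had -5.53, Tmem25 -5.33 and the aldo-keto reductase gene Akr1c13 -5.06. Susd3 had -4.94, the calpain gene Capn5 -4.90 and Pik3ip1, which restrains phosphatidylinositol 3-kinase, -4.85. The other probe set of Susd3 differed by -0.53 and that of Pik3ip1 by -1.66. Jakmip3 had -4.44, Cables1, a cyclin-dependent kinase adaptor, -4.42, Insyn2b -4.35 and Tex15 -4.26. Capn5 was at 3.11, 3.08 and 3.08 at 4 h, close to background, so that the size of its change is limited by the measurement. Akr1c13 (SE 0.40) and Capn5 (SE 0.38) had limma adjusted p-values of 0.0732, as did genes with smaller changes, the dynein gene Dnah2 (-2.83), the DNA ligase gene Lig1 (-1.84), Carmil1 (-1.73), which regulates actin capping, Tshz2 (-1.53), Aamdc (-1.46), the selenoprotein gene Selenoh (-1.35) and Uvssa (-0.72), a factor of transcription-coupled repair.

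A few genes crossed the background in full. On every array of 0 h Snap25, Serpinb2 and Zfp804a lay below the array median, and on every array of 4 h at least 2 log2 units above it (3 genes, 0.0165%). Serpinb2, an inhibitor of plasminogen activators, stood at 2.21, 2.21 and 2.23 at 0 h and 7.36, 6.27 and 5.31 at 4 h, and the zinc finger gene Zfp804a at 2.57, 2.21 and 2.57 at 0 h and 8.01, 4.93 and 5.79 at 4 h. The reverse held for Dpf3 and Kcne2 (2 genes, 0.011%). Dpf3, a histone-reading subunit of BAF chromatin remodellers, stood at 5.50, 6.07 and 4.77 at 0 h and 2.21, 2.29 and 2.29 at 4 h, and the potassium channel subunit gene Kcne2 at 8.29, 4.86 and 6.26 at 0 h and 2.79, 2.79 and 2.83 at 4 h. Zfp804a and Kcne2 were chosen after their values were seen.

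To set sequences beside the genes higher at 4 h, promoter windows of RefSeq (GRCm38.p6, 250 bases before to 50 bases after a start site) were searched on both strands. The motifs were the full cAMP response element TGACGTCA, its shorter core TGACG, the AP-1 motif TGANTCA, the core bound by RUNX factors TGTGGT, the E-box CACGTG, the GC box GGGCGG and the consensus progesterone receptor element. The full element contains the shorter core. The table held windows for 413 of the 536 genes separated upward and 1362 of the 1651 downward. The windows shown belong to the first 4 genes by p, among those named for the smallest p or the largest increase, that hold the full element, the AP-1 motif or the RUNX core. Windows of a single chromosome were passed over in this choice. Capitals mark the matches, each window reads 5′ to 3′ in the direction of the gene, and where a gene has several start sites the first window with a match is shown. For Sphk1 (chr11:116531587-116531886, plus strand) the capitals mark an AP-1 match whose first base lies 50 bases before the start site. For Jarid2 (chr13:44730524-44730823, plus strand) they mark a RUNX core on the opposite strand. Serpinb9 (chr13:33004291-33004590, plus strand) has a RUNX core just after its start site. Nmu (chr5:76363728-76364027, minus strand), the precursor of neuromedin U, has an AP-1 match 171 bases before its start site.
Sphk1: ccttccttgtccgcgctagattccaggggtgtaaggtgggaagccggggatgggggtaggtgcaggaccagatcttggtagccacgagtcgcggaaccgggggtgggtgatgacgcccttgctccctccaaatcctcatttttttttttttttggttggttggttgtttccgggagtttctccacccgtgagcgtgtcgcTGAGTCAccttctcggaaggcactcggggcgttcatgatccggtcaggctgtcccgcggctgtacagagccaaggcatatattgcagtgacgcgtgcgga
Jarid2: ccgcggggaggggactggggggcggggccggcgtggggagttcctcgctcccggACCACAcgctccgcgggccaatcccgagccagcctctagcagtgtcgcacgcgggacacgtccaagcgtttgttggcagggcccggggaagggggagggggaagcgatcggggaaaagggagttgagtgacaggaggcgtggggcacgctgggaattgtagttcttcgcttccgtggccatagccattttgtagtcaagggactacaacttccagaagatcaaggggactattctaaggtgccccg
Serpinb9: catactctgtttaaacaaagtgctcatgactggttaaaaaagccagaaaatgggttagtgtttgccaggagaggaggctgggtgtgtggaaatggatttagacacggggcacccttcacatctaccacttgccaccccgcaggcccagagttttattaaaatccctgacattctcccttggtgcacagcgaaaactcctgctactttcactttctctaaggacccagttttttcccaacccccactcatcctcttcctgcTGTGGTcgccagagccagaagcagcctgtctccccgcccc
Nmu: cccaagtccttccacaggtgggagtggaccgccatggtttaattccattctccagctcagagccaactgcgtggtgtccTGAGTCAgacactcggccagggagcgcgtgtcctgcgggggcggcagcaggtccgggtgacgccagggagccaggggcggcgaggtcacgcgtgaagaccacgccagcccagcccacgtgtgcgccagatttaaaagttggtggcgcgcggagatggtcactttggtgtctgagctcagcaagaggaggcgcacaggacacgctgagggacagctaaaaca

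Matches were counted in all windows of each set, with no test. The AP-1 motif was in 7.37% of the windows of genes separated upward and 5.19% of those downward, against 5.23% for all tested genes not set aside and 7.81% for every window of the table. The RUNX core was in 11.2% and 12.2%, against 12.3% and 16.8%. The full cAMP element was in 2.21% and 1.75%, against 2.96% and 1.79%, and the shorter core in 28.4% and 27.5%, against 30.3% and 20.8%. The GC box was in 63.9% and 62.1%, against 61.9% and 35.7%, and the E-box in 10.1% and 10.3%, against 9.94% and 7.15%. The progesterone receptor element was in 0 of the 543 windows upward and 2 of the 1774 downward, against 0.289% for tested genes not set aside and 0.475% of all windows. Such counts are too small to compare. A match is only a run of letters and shows no binding.

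One array of 0 h stood between the times for many genes. Genes with at least a 4-fold change that were separated by the other 5 arrays were used to place it, with the mean of the other 0 h arrays as 0% and the 4 h mean as 100%. On 0 h replicate 3, 361 such genes higher at 4 h had a median position of 57.1%, and 203 of them lay past 50%. The 659 genes lower at 4 h had a median of 43.1%. The same measure gave -15.5% and -17.1% for replicate 1, and -9.53% and 13.8% for replicate 2. For replicates 1 and 2 both the 0% point and the choice of genes include replicate 3, so their positions are not independent of it. The shift of replicate 3 was large in well known ovulatory genes. Sult1e1, which inactivates estrogen by sulfation, stood at 2.24, 3.20 and 10.30 at 0 h and 15.38, 13.98 and 14.43 at 4 h. Ptgs2, the inducible cyclooxygenase, stood at 3.05, 2.59 and 10.08 at 0 h and 13.29, 11.71 and 12.76 at 4 h, and F3, tissue factor, at 4.71, 2.51 and 13.56 at 0 h and 13.37, 12.85 and 13.73 at 4 h. All 3 stood near background on replicates 1 and 2 and high on replicate 3, so that F3 was not separated at all. Without 0 h replicate 3, 860 genes (4.73%) were separated upward and 2454 (13.5%) downward, and limma called 21 up and 52 down (0.401% in all). List counts below are given without this array too wherever they move by more than 1.5 times, and a single array other than this one is named where leaving it out does the same to a count of 5 or more, before or after. Why replicate 3 stands apart was not tested. It was not the only uneven array of 0 h. Replicate 1 had the lowest limma array weight, 0.39, against 1.49 and 1.16 for replicates 2 and 3. Its correlations across genes with replicates 2 and 3 were 0.967 and 0.961, against 0.980 between replicates 2 and 3. Without replicate 1, 533 genes were separated upward and 1400 downward.

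**Figure D3:**
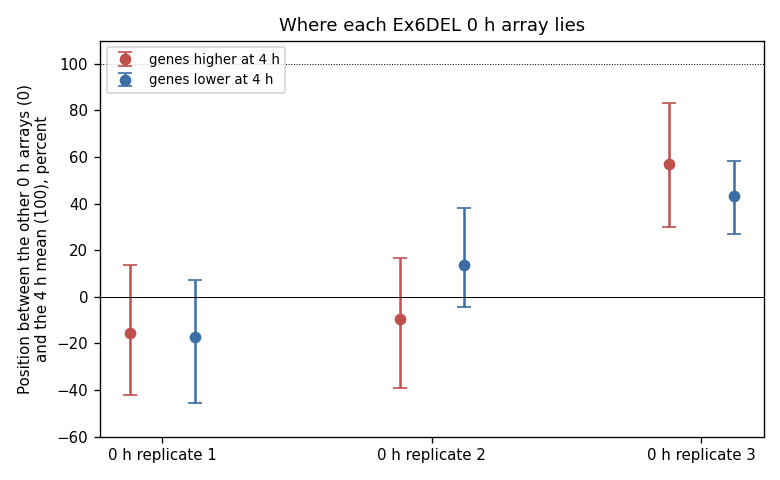
Position of each 0 h array between the mean of the other 0 h arrays (0%) and the 4 h mean (100%), with the median over genes as a point and the interquartile range as a bar, for genes higher (red) and lower (blue) at 4 h. Replicate 3 has medians of 57.1% and 43.1%, and those of replicates 1 and 2 lie between -17.1% and 13.8%.

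Gene lists covering the ovulatory switch were read against all genes, of which 2.95% were separated upward and 9.07% downward, with a median change of -0.01 and a negative change in 52.4%. Most list members are expressed, and the 11723 genes not set aside are the closer reference for such lists. Of these 4.57% were separated upward and 14.1% downward, with a median of -0.24 and a negative change in 64.0%. None of the 920 measured list members was called by limma over all genes on the 6 arrays. At an unadjusted p under 0.05 stood 70 members higher and 152 lower (7.61% and 16.5%, against 3.19% and 9.94% of all genes). In a fit of only the genes not set aside, 2678 of the 11723 stood at an unadjusted limma p under 0.05 in either direction. The lists were also chosen with earlier results of these data known, so no excess of list members is read from these shares. With the spread estimated over all 12 arrays limma called 19 members up and 16 down, and with only the genes not set aside in the test 7 and 7. The counts below are therefore counts of separated genes. A member given by name without a value was chosen after its values were seen.

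The ligands and early transducers of the response include genes with large differences. Of 16 genes of EGF-like ligands and their receptors 3 were separated upward and none downward (4 and 1 without 0 h replicate 3). Btc (betacellulin) stood at 2.60, 2.63 and 10.99 at 0 h and 14.94, 13.49 and 14.34 at 4 h, a change of 8.85 (SE 2.67), and Epgn (epigen) at 2.65, 2.52 and 8.54 at 0 h and 11.38, 10.66 and 11.05 at 4 h, a change of 6.45. Errfi1, the feedback inhibitor of these receptors, stood at 8.59, 9.37 and 12.21 at 0 h and 14.83, 13.56 and 13.73 at 4 h. In all 3 genes replicate 3 lay between the other arrays of 0 h and those of 4 h. Hbegf differed the other way, by -0.38, with arrays that were not separated. The median of the list was -0.02, since most of its members were not separated.

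The feedback inhibitors of ERK had 4 of 16 members upward and none downward (median change 0.76, and 1.26 with 7 upward without 0 h replicate 3, and 7 without 4 h replicate 2). They were the phosphatases Dusp4 (2.35) and Dusp5 (1.81) and the inhibitors Spry2 (2.77) and Spred1 (1.21). Dusp6 overlapped, at 3.35, 7.14 and 9.80 at 0 h and 10.79, 9.21 and 10.27 at 4 h. The immediate early genes had 4 of 23 upward, Egr3, Ier3, Ier5 and Arc (median 0.92), and 15 upward with 1 downward without 0 h replicate 3 (median 2.01), against 7 upward without 4 h replicate 1. Their list mean on that array, 9.31, was above those of the 4 h arrays (8.36 to 9.06), against 6.33 and 6.18 on the other arrays of 0 h. Egr3 stood at 3.36, 2.21 and 9.27 at 0 h and 11.05, 10.19 and 10.83 at 4 h, Ier5 at 4.85, 4.71 and 7.98 at 0 h and 10.15, 9.19 and 10.29 at 4 h and Arc at 3.81, 4.03 and 5.27 at 0 h and 6.34, 6.93 and 7.74 at 4 h, and Sik1, a salt-inducible kinase, overlapped with a change of 1.35.

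Transcription factors induced by LH showed the same dependence. Of 23 members 4 were separated upward and 1 downward (median 0.85), and 12 and 1 without 0 h replicate 3 (median 1.91). Pgr, the progesterone receptor needed for follicle rupture, stood at 4.71, 2.79 and 10.44 at 0 h and 14.40, 12.66 and 13.58 at 4 h, a change of 7.57. Runx1 stood at 3.72, 4.67 and 7.95 at 0 h and 11.998, 10.93 and 11.85 at 4 h, a change of 6.15. Nfil3 had 1.62, the co-activator gene Cited4 2.14 and Gata6, the 1 member downward, -1.20. Msc, a helix-loop-helix repressor outside the list, stood at 4.14, 3.92 and 7.84 at 0 h and 12.53, 11.39 and 12.29 at 4 h, and the interferon-inducible Ifi202b at 3.63, 5.46 and 6.49 at 0 h and 12.43, 9.79 and 10.72 at 4 h. In all of these but Gata6 every 4 h array lay above every array of 0 h.

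**Figure D4:**
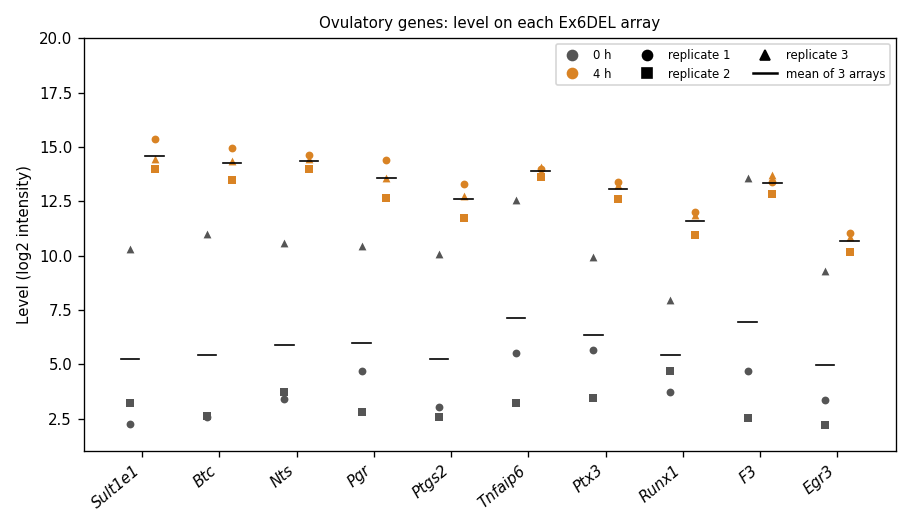
Level (log2 intensity) of 10 ovulatory genes on the arrays of 0 h (grey) and 4 h (orange), with symbols for the replicates and a bar at the mean of 3 arrays. For these genes the triangle of 0 h replicate 3 stands between 7.95 (Runx1) and 13.56 (F3), above the other arrays of 0 h, and in F3 it lies among the 4 h arrays.

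In cyclic nucleotide signalling, 5 of 38 members were upward and 7 downward (median 0.01), and 8 and 8 without 0 h replicate 3. Prkg2, above, had the largest change, and the other members upward were Prkar1b, the phosphodiesterase genes Pde4b and Pde10a and the natriuretic peptide receptor gene Npr1. Prkar1b, a regulatory subunit of protein kinase A, stood at 4.66, 4.38 and 5.78 at 0 h and 7.98, 8.05 and 7.72 at 4 h, a change of 2.98, but its 4 other probe sets differed by 0.07 to 1.37. Pkig, the protein kinase inhibitor gamma, had -1.79. Nppc, the precursor of C-type natriuretic peptide that keeps the oocyte in meiotic arrest, stood at 9.23, 8.27 and 8.94 at 0 h and 5.70, 5.32 and 6.36 at 4 h, a change of -3.01 (SE 0.39). All 3 arrays of 4 h lay well below those of 0 h. The RGS regulators of G protein signalling had none of 15 upward and 1 downward, Rgs3 (-1.20), and 1 and 2 without 0 h replicate 3.

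The cumulus matrix was the list with the largest share upward, 8 of 20, with 4 downward, Hmmr, Adamts5, Timp2 and Mmp14 (median 0.53, and 1.01 without 0 h replicate 3). Tnfaip6, which links hyaluronan chains, stood at 5.53, 3.23 and 12.57 at 0 h and 14.001, 13.61 and 14.06 at 4 h, and Ptx3, a pentraxin of the same matrix, at 5.66, 3.45 and 9.92 at 0 h and 13.37, 12.61 and 13.23 at 4 h. On 0 h replicate 3 both were already within 4 log2 units of the 4 h arrays. The proteoglycan gene Vcan had 2.32, its proteases Adamts4 3.90 and Adamts9 1.94, and Timp1, an inhibitor of metalloproteinases, 2.88. The Timp1 arrays stood at 8.21, 9.39 and 9.41 at 0 h and 11.75, 12.23 and 11.68 at 4 h, with 0 h replicate 3 beside replicate 2. In prostaglandin metabolism 1 of 19 was upward, Ptgs2, and 3 downward, Hpgd, Ptges and Ptgis (2 and 3 without 0 h replicate 3). Hpgd, which degrades prostaglandins, stood at 10.86, 10.75 and 9.39 at 0 h and 6.97, 5.72 and 6.76 at 4 h, a change of -3.85, and Ptges, a terminal prostaglandin E synthase, had -1.11. The other probe sets of Ptges differed by -0.50 and -0.19.

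Several neuropeptide precursors were higher at 4 h. Of 20 neuropeptide precursors 6 were separated upward and none downward, while 8 lay at the floor of the values on all arrays (median 0.16). Nts (neurotensin) stood at 3.39, 3.71 and 10.56 at 0 h and 14.63, 14.004 and 14.45 at 4 h, Tac1 (substance P) at 9.29, 7.79 and 11.26 at 0 h and 15.14, 14.04 and 14.15 at 4 h and Nmu at 2.62, 2.62 and 5.83 at 0 h and 9.89, 9.08 and 9.44 at 4 h. Adcyap1, the precursor of PACAP, stood at 3.78, 3.78 and 3.78 at 0 h and 9.72, 7.81 and 8.64 at 4 h, and Npy at 3.25, 3.12 and 5.70 at 0 h and 8.47, 8.33 and 8.58 at 4 h. The value of Adcyap1 was the same on all 3 arrays of 0 h to the digits shown. It may be a lower limit of that probe set, so the position of replicate 3 cannot be read from it. The exocytosis list had 3 of 27 in each direction, with Snap25, Stx3 (1.52) and Vamp1 upward and Syt11 (-1.32), Unc13b (-1.35) and Exoc6 downward.

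Genes of inflammation and clotting had larger shares upward than all genes, and angiogenic genes went in both directions. Of 36 interleukin, chemokine and innate signalling genes 7 were upward (19.4%) and 1 downward (8 and 2 without 0 h replicate 3). Lepr led, Il1r1, the interleukin-1 receptor, had 2.45 and the chemokine gene Cxcl2 2.04, while Socs2, an inhibitor of cytokine signalling, had -1.59. Of 22 coagulation and plasminogen genes 4 were upward (18.2%), Plau, Procr, Serpinb2 and Tfpi2, and Serpina5 was downward (7 and 1 without 0 h replicate 3). Plau, urokinase, stood at 3.29, 3.29 and 5.54 at 0 h and 8.61, 7.12 and 8.52 at 4 h, and Procr, the protein C receptor, at 8.23, 7.83 and 11.01 at 0 h and 12.64, 12.30 and 12.70 at 4 h. Tfpi2 had 1.97. Of 23 angiogenic genes 3 were separated in each direction (13.04%), with Vegfa at 1.61, Vegfc at 3.06, Pdgfa at 1.28, Angpt2 at -1.62 and Ece1 at -1.72, and Vegfb as the third downward. The median of this list was 0.02, and at an unadjusted limma p under 0.05 stood none of its members upward and 2 downward. Other probe sets differed by -0.08 for Vegfa, 0.20 for Pdgfa and 2.63 and 2.56 for Vegfc. Vegfc varied widely at 0 h, with arrays at 8.74, 2.72 and 6.39.

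Steroid genes went in both directions. Star, which carries cholesterol into mitochondria, stood at 6.37, 13.44 and 14.21 at 0 h and 14.39, 14.98 and 15.08 at 4 h, so that 0 h replicate 1 stood apart from the other arrays of its time by more than 7 log2 units. Its change of 3.48 (SE 2.36) rests on that array, and without it the means differed by slightly less than 2-fold. Hsd3b1, which makes progesterone, had -1.73, with 0 h arrays between 15.40 and 17.41. The progesterone list also holds genes that do not make progesterone, among them Hsd11b2 and Srd5a3. Of its 17 measured genes 2 were upward, Star and the ferredoxin gene Fdx1. Downward were 4, Hsd3b1, Hsd11b2 (-2.80), Srd5a3 (-1.76) and the cholesterol transporter gene Npc1 (-1.14). Of 17 estrogen genes 1 was upward, Sult1e1, and 6 downward (median -0.76). Hsd17b1, which forms estradiol, stood at 15.24, 15.12 and 14.81 at 0 h and 12.43, 11.45 and 12.64 at 4 h, the estrogen receptor gene Esr1 had -1.75 and Greb1, an estrogen-induced gene, -3.07. Of 23 cholesterol genes 1 was separated in each direction (2 without 0 h replicate 3), Cyp51 (1.90) of the synthesis pathway and Scap (-1.98), the sterol sensor. The other probe set of Scap differed by -0.11, and those of Cyp51 by 1.98 and 1.42. Luteal genes had 6 of 18 upward and 1 downward (median 1.26, and 10 upward with a median of 1.63 without 0 h replicate 3). Parm1, a mucin-like gene of the corpus luteum, stood at 9.03, 9.04 and 9.16 at 0 h and 10.57, 11.25 and 10.96 at 4 h.

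The programme of the preovulatory granulosa cell stood lower at 4 h. Of 25 members 14 were separated downward and 1 upward (median -1.31, and -1.53 with 14 and 1 without 0 h replicate 3). Inhbb, which encodes the beta B chain of inhibin B and activin B, stood at 16.38, 15.69 and 15.10 at 0 h and 10.27, 9.70 and 10.83 at 4 h, a change of -5.45 (SE 0.47, limma adjusted p = 0.0798), and its other probe set differed by -3.37. Fshr, the FSH receptor, stood at 13.57, 12.05 and 12.10 at 0 h and 8.28, 7.69 and 8.76 at 4 h, a change of -4.34. Gata4 stood at 8.88, 9.06 and 9.36 at 0 h and 4.81, 6.37 and 7.12 at 4 h, a change of -3.001. For all 3 genes replicate 3 of 0 h lay with its group.

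Genes of growth factor signalling had members in both directions. The D-type cyclin gene Ccnd2, a mediator of FSH-driven growth, had -1.31 and Igf1 -1.90, while the receptor gene Igf1r was the member upward, at 1.47. The other probe sets of Igf1 differed by -2.65, -0.04 and -0.03, so its decrease depends on the probe set. Irs1, the docking protein of insulin signalling, stood at 11.30, 11.09 and 10.30 at 0 h and 8.55, 6.80 and 7.45 at 4 h, a change of -3.30. In the insulin-like growth factor list 2 of 17 were upward, Igf1r and Pappa, and 3 downward, Igf1, Irs1 and Igf2r (-1.14), but 7 were downward without 0 h replicate 3 and 6 without 4 h replicate 2. In the TGF-beta and BMP list 3 of 36 were upward, Bmp2, Bmp6 and Id2, and 7 downward (4 without 0 h replicate 1), with Id3, a target of BMP signalling, at -3.16, the receptor gene Bmpr1b at -2.16 and the ligand gene Bmp6 at 1.41. The Wnt and Notch list had 5 of 32 upward, Jag1, Lrp6, Wnt11, Fzd1 and Sfrp4, and 2 downward. The Notch ligand gene Jag1 stood at 7.17, 7.14 and 8.17 at 0 h and 11.01, 9.78 and 10.30 at 4 h and the Wnt co-receptor gene Lrp6 had 1.97, against -2.78 for Fzd2 and -2.63 for the Notch target Hey2. Gja1, the main gap junction protein of granulosa cells, stood at 17.58, 16.61 and 16.11 at 0 h and 16.06, 15.57 and 15.62 at 4 h, and it and F11r (-1.56) were the only 2 of 23 junction genes downward, with none upward (1 without 0 h replicate 3).

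Most proliferation genes had a lower mean at 4 h, and fewer than 1 in 2 were separated. Of 38 mitosis genes 37 had a negative change and 15 were separated downward (39.5%), with a median of -0.91. Of 35 DNA replication genes 29 had a negative change, 5 a positive one, and 15 were separated downward (42.9%), with a median of -0.76. Each list had 17 downward without 0 h replicate 3, and DNA replication also 1 upward, and 9 were downward without 0 h replicate 1. On all 6 arrays neither list had a member upward. Lig1, which seals nicks in the lagging strand, stood at 8.93, 8.96 and 8.82 at 0 h and 6.92, 6.95 and 7.31 at 4 h. Prc1, a factor of the central spindle, stood at 10.79, 10.56 and 10.33 at 0 h and 9.50, 9.34 and 9.47 at 4 h, and Cenpf, of the kinetochore, at 9.996, 10.13 and 9.67 at 0 h and 8.90, 8.53 and 8.84 at 4 h. These 3 genes had a narrow spread at both times, with limma adjusted p-values of 0.0732, 0.130 and 0.155. The cyclin gene Ccnb2 had -3.24, the kinase gene Aurkb -1.98, Birc5 -1.36, Pold1 -1.87, Prim2 -1.97 and the ribonucleotide reductase gene Rrm1 -1.07. Another probe set of Rrm1 differed by only -0.09. After quantile normalization 9 members of each list were separated downward, with medians of -0.72 and -0.62, and 1 replication gene upward. Cdkn1a, the p21 inhibitor of cyclin-dependent kinases, stood at 6.003, 7.65 and 10.004 at 0 h and 10.73, 11.16 and 12.03 at 4 h, and it was the 1 member upward of 18 D-type cyclin and inhibitor genes. Among 17 BCL2 family genes none was upward and 3 were downward, Bnip3 (-3.02), Bcl2l1 (-1.57) and Bok (-1.50).

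The genes of the respiratory chain pointed one way. All 39 measured oxidative phosphorylation subunits had a negative change, with a median of -1.09, and 20 of them were separated downward. The list mean was 12.17, 11.98 and 11.38 on the arrays of 0 h and 10.77, 11.13 and 10.61 on those of 4 h. Ndufs8 of complex I stood at 14.04, 12.64 and 11.63 at 0 h and 10.47, 11.13 and 10.48 at 4 h, a change of -2.08, and 4 of its 5 other probe sets were separated downward as well. Ndufv1 stood at 13.16, 13.15 and 12.42 at 0 h and 11.56, 11.93 and 11.75 at 4 h, Ndufb8 had -1.10, Ndufb3 -1.03 and Sdhc of complex II -1.19. The other probe set of Sdhc differed by -0.25. The count depended on scaling. After quantile normalization 5 members were separated downward, with a median of -0.71, and after the shift to one median 14, with -0.99. Without 0 h replicate 3 there were 24, with -1.26.

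Other metabolic and stress lists were mixed. Of 33 glycolysis and hypoxia genes 10 were downward and 4 upward, Slc2a1, Slc2a3, Eno2 and Ndrg1 (median -0.68, and 4 downward with 5 upward after quantile normalization, median -0.28). The phosphofructokinase gene Pfkl stood at 10.20, 11.42 and 10.10 at 0 h and 8.21, 8.34 and 7.99 at 4 h, the lactate transporter gene Slc16a3 had -1.76 and Egln3, a hypoxia-induced hydroxylase, overlapped at 2.89, 3.76 and 9.13 at 0 h and 9.56, 7.39 and 9.08 at 4 h. Of 34 glutathione and thioredoxin genes 5 were upward, Slc7a11, Gclc, Gss, Gsta2 and Txnrd1, and 6 downward (10 without 0 h replicate 3 and 11 without 4 h replicate 2). Slc7a11, the cystine importer that feeds glutathione synthesis, stood at 3.73, 3.61 and 5.07 at 0 h and 9.28, 8.18 and 9.40 at 4 h, a change of 4.82, while the transferase genes Gstm1 (-1.89), Gstm2 (-1.67) and Gstt1 (-1.72) were downward. Of 31 chaperone genes 1 was separated in each direction (2 without 0 h replicate 3, and 6 downward without 4 h replicate 2), with Hsph1 at 1.73 upward and Calr downward, and the sign of the list median turned from -0.21 to 0.14 after quantile normalization. Of 21 clock genes 2 were upward, Nfil3 and Bhlhe40, and 3 downward, Per3, Nr1d2 (-1.57) and Tef (-1.94), against 4 upward without 0 h replicate 3 and 5 downward without 4 h replicate 2.

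Chromatin genes were examined since the deleted exon belongs to a remodeller, whose own gene, Smarca1, is described above. The ISWI list has 15 genes, and not all are subunits, Sall4 being an exception. None of them was upward and 1 was downward, Rbbp4 (-1.27), the histone chaperone shared with other complexes. The other probe sets of Rbbp4 were not separated and differed by 0.20, -0.24 and 0.40. Baz1a, a partner of the related ATPase Smarca5, overlapped at 4.96, 6.40 and 5.44 at 0 h and 9.03, 6.40 and 7.77 at 4 h. After quantile normalization 2 genes of the ISWI list were upward and none downward, without 0 h replicate 3 there were 1 and 2, and without 4 h replicate 1 none and 5. Of 37 BAF, CHD and INO80 genes 9 were downward (24.3%, against 14.1% of genes not set aside) and 1 upward, but quantile normalization left 3 downward and the fit without 0 h replicate 1 left 2. Without 0 h replicate 3, 9 were downward and 2 upward. Dpf3, above, had the largest change, and the upward member was Srcap (1.53), but the other probe sets of Srcap differed by 0.02, -0.16 and 0.03. Of 50 histone-modifying enzymes 6 were downward (12%, against 14.1% of genes not set aside) and none upward. The counts were 9 and 3 without 0 h replicate 3 and 3 and 0 without 0 h replicate 2. Examples downward were the acetyltransferase gene Kat6b, at 6.26, 5.84 and 5.41 at 0 h and 4.23, 4.03 and 4.04 at 4 h, and Hdac6 (-2.13), and quantile normalization left 2 downward and 1 upward.

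Fgl2, the fibrinogen-like prothrombinase named in the series title, stood at 7.92, 3.20 and 3.82 at 0 h and 7.93, 5.86 and 5.83 at 4 h. Replicate 1 was the highest array at both times and the groups overlapped (change 1.56, SE 1.55, limma adjusted p = 0.647). The interval of that change at 95% ran from -2.55 to 5.67.

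The labelled cell type was checked against its markers. Of 15 granulosa markers 14 were above the floor on these arrays and Amh was at it. All 15 had a change at or below 0 and 9 were separated downward, as many of them are the preovulatory genes above. In such bulk samples fewer cells of a type and less RNA per cell cannot be told apart. Theca and stroma markers were present and uneven. Their summed intensity on the linear scale was 149390, 24289 and 9755 on the arrays of 0 h and 6708 to 14309 at 4 h, highest on 0 h replicate 1. All 15 had a change at or below 0 (median -1.53), 2 were separated downward, Lum (-2.44) and Tcf21 (-2.95), and Des and Gli1 lay at the floor. Without 0 h replicate 3, 10 of the 15 were separated downward, with a median of -2.23, and without 4 h replicate 2 the number was 7. Without 0 h replicate 1 the median was -0.34. The medians of downward groups above stayed negative without that array, at -0.95 for preovulatory genes, -0.58 for mitosis, -0.51 for DNA replication and -0.80 for oxidative phosphorylation. How much of each rests on theca and stroma cells was not tested.

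Markers of the remaining cell types had few separated members. Oocyte markers had none of 20 separated, but 4 downward without 0 h replicate 3 and 4 without 4 h replicate 3. Of the 20, 15 had a negative change (median -0.26), with a summed intensity of 22935, 10334 and 7578 at 0 h and 5344 to 8981 at 4 h, and Figla and Sohlh1 at the floor. Endothelial markers had none of 15, or 1 downward without 0 h replicate 3, with sums of 705 to 2078 at 0 h and 758 to 1840 at 4 h, and Pecam1 and Tie1 at the floor. Leukocyte markers had 1 of 17 upward, Ptprc, and 2 without 0 h replicate 3, with sums of 1494 to 2633 and 3047 to 3078, and Itgam, Itgax, Cd3g, Cd79a and Nkg7 at the floor. Red blood cell markers had none of 7 (sums 1140 to 3921 and 1529 to 3946, with Hba-a1 at the floor) and surface epithelium none of 13 or, without 0 h replicate 3, 1 downward (512 to 1966 and 861 to 1371). The part of these cells in the results was not tested.

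**Figure D5:**
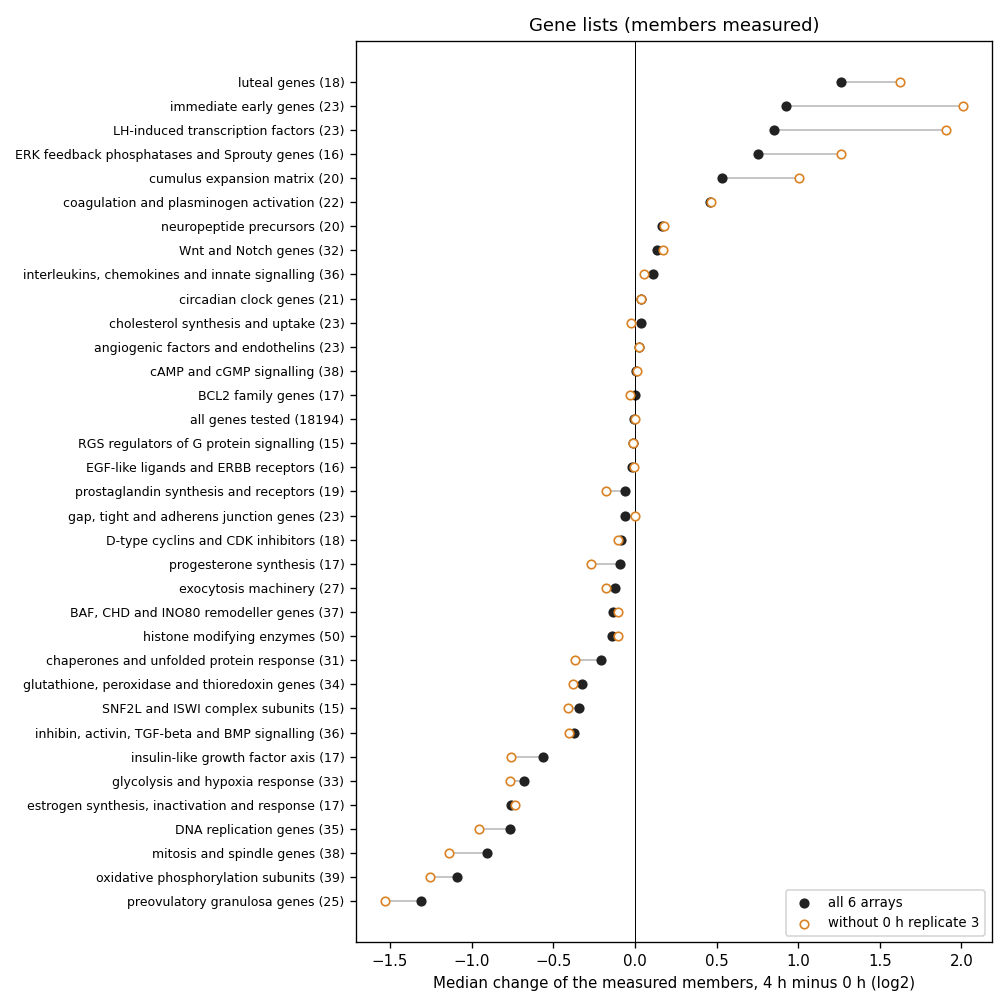
Median change of the measured members of each gene list between 0 h and 4 h (log2), with the number of members in brackets, over all 6 arrays (black) and without 0 h replicate 3 (open). Luteal, immediate early and LH-induced transcription factor lists stand to the right, with 1.26, 0.92 and 0.85, and preovulatory, oxidative phosphorylation and mitosis lists to the left, with -1.31, -1.09 and -0.91.

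The same contrast in WT littermates shows how much of this is shared. Of the 536 genes separated upward in Ex6DEL cells 95.9% had a positive change in WT and 77.2% were separated upward there too. Those shared genes were 52.9% of the 782 genes separated upward in WT. Of the 1651 downward genes 96.5% had a negative change in WT and 36.9% were separated downward, and these were 65.5% of the 931 of WT. The median change of the upward genes was 1.81 in Ex6DEL and 1.89 in WT, and of the downward genes -1.49 and -0.90. The genes were chosen on the Ex6DEL values, which favours larger changes there. The test of the difference between the responses (the interaction in a limma fit of all 12 arrays) called 2 of 18194 genes (0.011%), with 583 at an unadjusted p under 0.05. They were Ccdc8, chosen after its values were seen, and a predicted gene. Both were set aside in Ex6DEL cells and neither was among the separated genes. Of the separated genes 22 upward and 118 downward had an unadjusted p under 0.05.

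Preovulatory and respiratory genes had lower medians in Ex6DEL than in WT cells. The median change of oxidative phosphorylation genes was -1.09 in Ex6DEL and -0.24 in WT, and in all 39 the Ex6DEL change was the more negative. For preovulatory genes the medians were -1.31 and -0.28, and 24 of 25 changes were more negative. A more negative change in Ex6DEL was common, at 57.8% of all genes, 67.3% of those not set aside and 657 of the 920 list members (71.4%). Other lists had it too, such as chaperones with 28 of 31, cholesterol genes with 20 of 23 and glycolysis with 27 of 33. For Inhbb the change was -5.45 in Ex6DEL and -2.11 in WT (limma adjusted p of the interaction = 0.871), and for Hsd17b1 -2.88 and -0.71. In both lists no member passed the interaction test, 7 and 5 had an unadjusted p under 0.05, and the difference was not tested over the list. Theca and stroma markers also had the lower median in Ex6DEL, -1.53 against 0.00 in WT, and the part of such cells in these differences was not tested.

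Single probe sets repeat these counts on a wider base. Of all 45101 probe sets limma called none (21 at an adjusted p under 0.10, 3925 at an unadjusted p under 0.05), while 1288 (2.86%) were separated upward and 2392 (5.3%) downward. Of these, 393 have no single gene symbol. Where a separated gene had other probe sets above background, they mostly pointed the same way. Of 521 such sets of upward genes 92.7% had a positive change and 57.4% reached 2-fold. Of 1226 sets of downward genes 85.1% had a negative change and 35.8% reached 2-fold. Of all 8215 other probe sets above background, of any gene, 50.9% had a positive change.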

How the data were processed

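RNA of granulosa cells was measured on mouse expression arrays, and the deposited values, as made by the authors with GCRMA per the submitters' processing notes (version not given in the sources used here), are log2 intensities per probe set. GCRMA corrects background, normalizes between arrays and summarises probes, and its values end in a floor of 2.21, below which nothing is resolved. Of 45101 probe sets, 34958 had 1 gene symbol in the reference table, 932 several and 9211 none. Of several probe sets of a gene, the brightest on average over all 12 arrays was used.

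The 6 Ex6DEL arrays were compared in R 4.3.3 by lmFit and eBayes of limma 3.58.1, two-sided, with Benjamini-Hochberg adjustment over all genes. SE is the moderated standard error, and the 95% interval is built from it. The interaction with WT was fitted on 12 arrays. The fit was tested on simulated data. Deviations from the group means correlated across genes at 0.140, 0.349 and 0.220 between 0 h and 4 h arrays of the same number. Between arrays of different numbers the values were -0.257 to 0.0557. The titles give only replicate numbers, so this check does not establish a pairing, and the block is given as an alternative. The number of arrays limits the precision.

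Named genes are Smarca1, Fgl2, for each direction the 15 separated genes of largest change and the 15 of smallest p, and per list the 4 members with the smallest p and the largest change. Predicted genes are counted and not named. The members and lists were chosen with earlier results of these data known, and of 979 list symbols 920 were measured. Alternatives were quantile normalization, a shift to one median, filters and a floor on dim genes, other choices of probe set, trend and robust, array weights, 12 arrays in the fit, the replicate block, other thresholds and each array left out.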

Additional observations from a re-analysis of the deposited data

Results flagged for a closer look

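The test of the difference between the hCG responses of Ex6DEL and WT cells (interaction, limma on 12 arrays) called 2 genes. For Ccdc8 the difference was 2.05 (SE 0.14, limma adjusted p = 0.00322). It stood at 2.57, 2.57 and 2.78 at 0 h and 2.39, 2.57 and 2.57 at 4 h in Ex6DEL cells, near background on all 6 arrays, and at 4.66, 4.90 and 4.92 at 0 h and 2.57, 2.77 and 2.59 at 4 h in WT cells. For a predicted gene, Gm1976, it was 0.746 (limma adjusted p = 0.0163), with a change of -0.75 in WT. Both genes lay near background at both times in Ex6DEL cells.

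Clu, E2f5, Pik3cd, Sema6c and Trim54 had separated arrays in both genotypes but in opposite directions, and were chosen after their values were seen. Clu, the secreted chaperone clusterin, had a change of -1.06 in Ex6DEL and 0.70 in WT. E2f5, a transcription factor of the cell cycle, had 1.71 and -0.95, and Pik3cd, a phosphatidylinositol 3-kinase subunit, 2.42 and -0.95. Sema6c had 1.11 and -0.62, and Trim54 1.01 and -0.78. Trim54 lay near the floor, at 2.21, 2.21 and 2.61 at 0 h and 3.01, 3.01 and 4.04 at 4 h in Ex6DEL cells. In WT cells it stood at 4.49, 3.79 and 3.09 at 0 h and 3.01, 3.01 and 3.04 at 4 h. None of the 5 passed the limma interaction test (adjusted p = 0.871 for each). In E2f5, Pik3cd and Sema6c 0 h replicate 1 lay lowest in Ex6DEL cells, at 11.48, 9.46 and 8.06 against 13.69, 12.98 and 10.11 on replicate 2, and in Clu it lay highest, at 17.29 against 15.77.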

How the results depend on the processing

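The count of genes called by limma was unstable. Against 10 genes as deposited it was 15 with array weights, 10 with the probe set chosen on these 6 arrays and 8 after quantile normalization, and it was 394 (103 up, 291 down) with 12 arrays in the fit, 343 with only genes above the median level, 91 with only genes not set aside and 72 after the shift to one median. It was 3 with the mean of probe sets, 0 with the replicate block, 0 with a floor at the table median (2269 genes at an unadjusted p under 0.05) and 0 with trend and robust (2341). Leaving out 1 array gave 0 to 73, and 0 h replicate 2 and 4 h replicate 2 were the arrays whose removal left 0 (1601 and 2131 at an unadjusted p under 0.05). At adjusted p under 0.10 the count was 43 and under 0.01 it was 0.

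Separated genes numbered 1445 (405 up, 1040 down) with the mean of probe sets, against 2187, and 1933 to 3314 with 1 array left out. For single probe sets, of which none was called, the count was 240 with 12 arrays, 27 with only those above the median level, 27 with only those not set aside, 6 after quantile normalization, 71 after the shift, 21 at adjusted p under 0.10, and 7 to 84 with 1 array left out. The interaction called 2 genes, 1 with the replicate block, and 2 to 23 with 1 Ex6DEL array left out, the highest without 4 h replicate 1. The causes were not tested. Arrays of the same replicate number were more alike by the check given with the methods, which does not establish a pairing, and the block changed no other count past its limit. Medians of gene lists moved by more than the spread between replicates under 59 combinations of the 41 lists with the alternative settings. The marker gene Itgax, near the floor, had a change of -0.01 as deposited and 0.0859 after the shift. Signal near the floor limits the size of decreases, and 3 arrays a group limit the rest.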
